A study of Mus musculus with 2 samples.

Results

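The chemokine genes Cxcl9 and Cxcl10 and the gene of their receptor, Cxcr3, were followed across the cell types of mouse pancreatic tumors. They were chosen by symbol as one ligand and receptor axis, and make up 3 of the 32285 genes in the files. Single-cell RNA sequencing (10x Genomics, 3′ chemistry) of cells that the study describes as immune cells from the tumors gave 2 libraries. Of these, 1 came from mice injected with PBS and 1 from mice given cmExoaCD11b. Shares of cells and of UMIs below are those of these cell preparations, not of the whole tumors. The hosts were male C57BL/6J mice, 5 to 6 weeks old when bought, and carried K210 tumor cells, placed in the pancreas; the line comes from a mouse whose engineered alleles include Pdx1-Cre, active in the pancreas, and Trp53 fl/fl. cmExoaCD11b is an exosome loaded with IL-12 mRNA and cGAMP, a ligand of the DNA-sensing adaptor STING, and coated with antibodies to the myeloid surface protein CD11b. Mice given cmExoaCD11b received 5 µg of cGAMP each, and injections in both groups were intraperitoneal, starting 7 days after tumor cell injection and repeated every 3 days. Cells were taken 48 h after treatment and pooled from 3 mice per library, so treatment, pool and library cannot be told apart. The PBS mice received no exosomes, and exosomes without cGAMP, mRNA or antibody were not analysed here. There is no replicate check, no test between the libraries was possible, and all intervals are 95% intervals of counting error only.

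CXCL9 and CXCL10 are small secreted proteins that bind the G protein-coupled receptor CXCR3, which is found mainly on activated and memory T cells and on NK cells, and draw those cells into inflamed tissue. Interferon gamma from T and NK cells induces both ligands, and Cxcl10 also answers to type I interferon and NF-kappaB, the pathways that STING switches on. In tumors, type 1 dendritic cells (DCs) and macrophages are known sources of CXCL9. Cxcl11, the gene of the remaining ligand, was not analysed here.

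Both ligand genes lie on the minus strand of chromosome 5 in the GRCm38 annotation (GENCODE M21), Cxcl9 at chr5:92321347-92328079 and Cxcl10 at chr5:92346638-92348889, with 18.6 kb between them, and Cxcr3 lies on the minus strand at chrX:101731535-101734269. The deposited files name no build. The 250 bases before the start of each ligand gene are shown because the libraries were compared for genes of the interferon response (RefSeq, GRCm38.p6, minus strand, 5′ to 3′, chr5:92328080-92328329 and chr5:92348890-92349139). Capitals mark letters that matched a searched motif on either strand.
Cxcl9: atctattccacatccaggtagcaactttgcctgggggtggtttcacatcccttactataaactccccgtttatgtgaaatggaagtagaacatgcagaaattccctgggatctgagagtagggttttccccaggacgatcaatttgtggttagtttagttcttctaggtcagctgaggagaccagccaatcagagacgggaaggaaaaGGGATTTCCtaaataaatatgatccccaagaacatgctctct
Cxcl10: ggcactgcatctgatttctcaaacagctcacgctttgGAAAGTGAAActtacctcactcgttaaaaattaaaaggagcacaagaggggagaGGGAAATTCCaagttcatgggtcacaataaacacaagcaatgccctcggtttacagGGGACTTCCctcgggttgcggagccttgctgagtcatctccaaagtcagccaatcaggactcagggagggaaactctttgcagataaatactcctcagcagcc

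The motifs, whose letters were chosen with these sequences in view, were the interferon-response type (GAAA, any 2 bases, GAAA) and the NF-kappaB types GGGANTTCC and its form 1 base longer (GGGA, any 2 bases, TTCC). A spaced pair of TTC and GAA (TTCNNNGAA) was searched as well and matched neither window. They were searched on both strands, and matches of the NF-kappaB types did not overlap each other. Cxcl10 held GAAAGTGAAA 213 bases before its start, GGGAAATTCC 159 bases before it and GGGACTTCC 103 bases before it. Cxcl9 held GGGATTTCC 42 bases before its start. Of 32851 promoters searched over the same length and both strands, 2.98% held the interferon-response type, 1.43% GGGANTTCC, 1.21% its longer form and 7.02% TTCNNNGAA. A match describes the letters of these windows only.

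After cell calling, filtering and removal of likely doublets, 6835 PBS cells and 7076 cmExoaCD11b cells were kept, with median depths of 3471 and 4112 unique molecular identifiers (UMIs) per cell. The libraries shared 16 barcodes among kept cells. Cells were gated into classes by marker genes, none of which was a member of the axis. Levels are in CPM, the UMIs of a gene per 1000000 UMIs summed over a class, with Poisson intervals that are exact, and ratios are cmExoaCD11b to PBS with exact conditional intervals. The cells gated as T cells held 4920 CPM of the T cell marker list in PBS and 4233 CPM in cmExoaCD11b, and NK cells, the next class, held 306 and 451 CPM. The macrophage list stood at 11443 and 8384 CPM in the cells gated as macrophages, against 971 and 232 CPM in those gated as monocytes. The monocyte list did not set its class apart, since immature neutrophils held 6827 and 10215 CPM of it and monocytes 5073 and 5678 CPM. The monocyte gate itself did not count Chil3, a gene of that list, and needed a UMI of Vcan or F13a1. The classes differed in number between the libraries, with 293 and 66 macrophages, 379 and 882 T cells, 11 and 43 type 1 DCs, and 41 and 142 plasma cells. Empty droplets held free RNA of all members, at 491 and 662 CPM for Cxcl10, 19.7 and 10.4 CPM for Cxcl9, and 8.07 and 15.2 CPM for Cxcr3. Levels were therefore read against that expected if 10% of the UMIs of a class were free RNA.

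**Figure D1:**
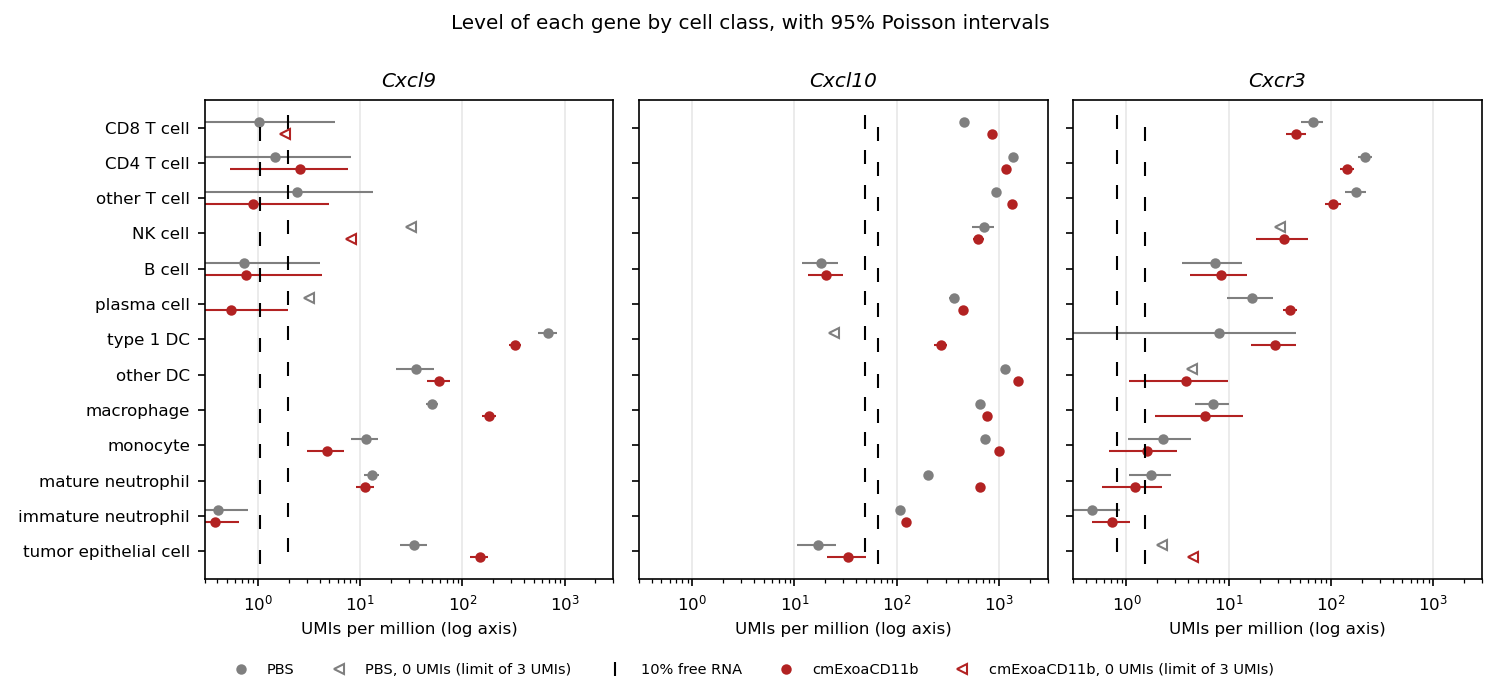
Level of Cxcl9, Cxcl10 and Cxcr3 (CPM, log axis) in 13 gated classes of the PBS and cmExoaCD11b libraries. Points carry exact Poisson 95% intervals, black ticks show the level that 10% free RNA would give and open triangles mark classes with 0 UMIs at the level of 3 UMIs; Cxcl10 stood above its tick in all classes drawn with a UMI except B cells and tumor epithelial cells, and Cxcr3 was highest in CD4 T cells, at 216 and 143 CPM.

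Cxcl10 was the abundant ligand. It gave 15518 UMIs in PBS and 26836 UMIs in cmExoaCD11b, or 306 CPM (302-311) and 429 CPM (424-435), a ratio of 1.40 (1.37-1.43). Cells with at least 10 Cxcl10 UMIs numbered 338 (4.95% of cells) and 564 (7.97%), and held 86.4% and 87.5% of all its UMIs. With each cell thinned to 1000 UMIs, the share of cells with a Cxcl10 UMI was 8.84% and 14.3%. The corresponding share in B cells, which held Cxcl10 below the free RNA level, was 0.858% and 2.42%, at median depths of 3572 and 4126 UMIs before thinning. The overall ratio was 1.06 when only barcodes above the ranked-UMI cut-off were kept as cells (2407 and 2769 barcodes) and 2.16 with thinned cells.

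In PBS, Cxcl10 was highest in CD4 T cells, at 1358 CPM, followed by DCs outside the type 1 and mature classes ("other DCs") at 1145 CPM and T cells with no assigned CD4 or CD8 gate ("other T cells") at 944 CPM. Monocytes (727 CPM), NK cells (707 CPM) and macrophages (656 CPM) came next, below other T cells and above CD8 T cells, and neighbours among them did not differ beyond counting error. CD8 T cells held 458 CPM, plasma cells 361 CPM, mature neutrophils 201 CPM and immature neutrophils 108 CPM. B cells and tumor epithelial cells, at 18.2 and 16.9 CPM, lay below the level of 10% free RNA. In cmExoaCD11b the order began with other DCs (1551 CPM), other T cells (1328 CPM), CD4 T cells (1183 CPM), monocytes (990 CPM), CD8 T cells (854 CPM) and macrophages (757 CPM). Mature neutrophils followed at 656 CPM and did not differ beyond counting error from NK cells at 631 CPM. By summed Cxcl10 UMIs, monocytes held 2903 in PBS and 5040 in cmExoaCD11b, and mature neutrophils 2293 and 5469. Immature neutrophils held 2112 and 3937, T cells 1775 and 4304, and macrophages 2614 and 642. Cells that passed no gate are outside the order above. They held 1758 and 2291 Cxcl10 UMIs, or 625 and 1176.5 CPM, a ratio of 1.88 (1.77-2.01).

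Mature neutrophils showed the largest Cxcl10 ratio among the classes with UMIs in both libraries and at least 20 cells in each. Their level was 201 CPM (192-209) in 3110 PBS cells and 656 CPM (638-673) in 2281 cmExoaCD11b cells, a ratio of 3.27 (3.11-3.44). Of 9561 genes compared in this class, 99.1% had a lower ratio, and the median ratio was 0.898. The share of thinned cells with Cxcl10 was 6.04% (5.22-6.96) and 10.8% (9.53-12.2). Cells with at least 10 UMIs numbered 55 in PBS and 109 in cmExoaCD11b, and the highest cells held 117 and 171 UMIs. Mature neutrophils supplied 14.8% and 20.4% of all Cxcl10 UMIs, and were 45.5% and 32.2% of the cells. The monocyte marker list, Chil3 included, moved with this level. It stood at 1009 CPM in PBS neutrophils with Cxcl10 against 507 CPM in those without, and at 1571 against 829 CPM in cmExoaCD11b. The macrophage list stood at 194 against 175 CPM and at 133 against 43.3 CPM, and the part of these lists in the result was not tested. The ratio was 1.94 with only barcodes above the ranked-UMI cut-off.

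Monocytes held 727 CPM (700-753) of Cxcl10 in PBS and 990 CPM (963-1018) in cmExoaCD11b, a ratio of 1.36 (1.30-1.43). The share of monocytes with a UMI was 33.1% and 50%, and in thinned cells 14.3% (10.5-18.9) and 27.4% (22.6-32.6). The highest monocyte in each library held 388 and 508 UMIs, the most of any cell. The ratio was 2.42 in thinned cells and 2.18 as a mean over cells. Macrophages stood at 656 and 757 CPM, a ratio of 1.15 (1.06-1.26), close to the median ratio of 1.09 over the genes of that class. Because macrophages were 4.29% of the PBS cells and 0.933% of the cmExoaCD11b cells, their part of all Cxcl10 UMIs was 16.8% and 2.39%.

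In T cells, Cxcl10 stood at 850 and 1081 CPM, a ratio of 1.27 (1.2-1.35). CD8 T cells held 458 CPM (416-502) and 854 CPM (810-900), a ratio of 1.87 (1.68-2.08). CD4 T cells held 1358 CPM (1272-1449) and 1183 CPM (1121-1247), a ratio of 0.871 (0.80-0.947). Other T cells stood at 944 and 1328 CPM, a ratio of 1.41 (1.26-1.58). The direction was not stable to processing: above the ranked-UMI cut-off the ratio was 0.665 in CD8 and 1.34 in CD4 T cells, and a stricter gate gave 1.03 in CD4 and 0.987 in other T cells. The macrophage marker list stood at 79.0 CPM in PBS T cells and 23.6 CPM in cmExoaCD11b T cells. In T cells with no UMI of that list, an alternative chosen after seeing the data, Cxcl10 was 305 and 861 CPM in CD8 T cells (ratio 2.82, 2.43-3.29) and 1474 and 1202 CPM in CD4 T cells (0.815, 0.743-0.895). Cxcl10 UMIs were thus also counted in T cells without macrophage markers. This alternative covers the macrophage list only, and the part of RNA from monocytes, other DCs or neutrophils in these T cells was not tested.

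Among DCs, the other DCs held 1145 and 1551 CPM, a ratio of 1.35 (1.24-1.48), and in both libraries over 50% of them had a UMI, 29 of 53 and 46 of 84 cells. In type 1 DCs, the class that cross-presents antigen to CD8 T cells, none of 11 PBS cells had a Cxcl10 UMI, which allows up to 24.3 CPM by a floor of 3 UMIs (29.9 CPM by the exact upper limit), and 14 of 43 cmExoaCD11b cells had 162 UMIs together, or 269 CPM (229-314). This level was 11.1 times the floor of 3 UMIs in the PBS library, and the lower limit of the conditional interval was 8.91. Both values rest on 11 PBS cells, and neither covers the spread between cells. In cmExoaCD11b 3 of the 43 type 1 DCs, with 70, 45 and 16 UMIs, held 80.9% of the Cxcl10 UMIs of the class. In plasma cells the ratio of 1.22 (1.09-1.38) equalled the median of that class over genes, 1.23, and in NK cells it was 0.891 (0.677-1.19). The NK cell ratio ran from 0.857 to 2.48 over 12 alternatives, of which 4 were above 1, the highest without the top cell of each library.

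**Figure D2:**
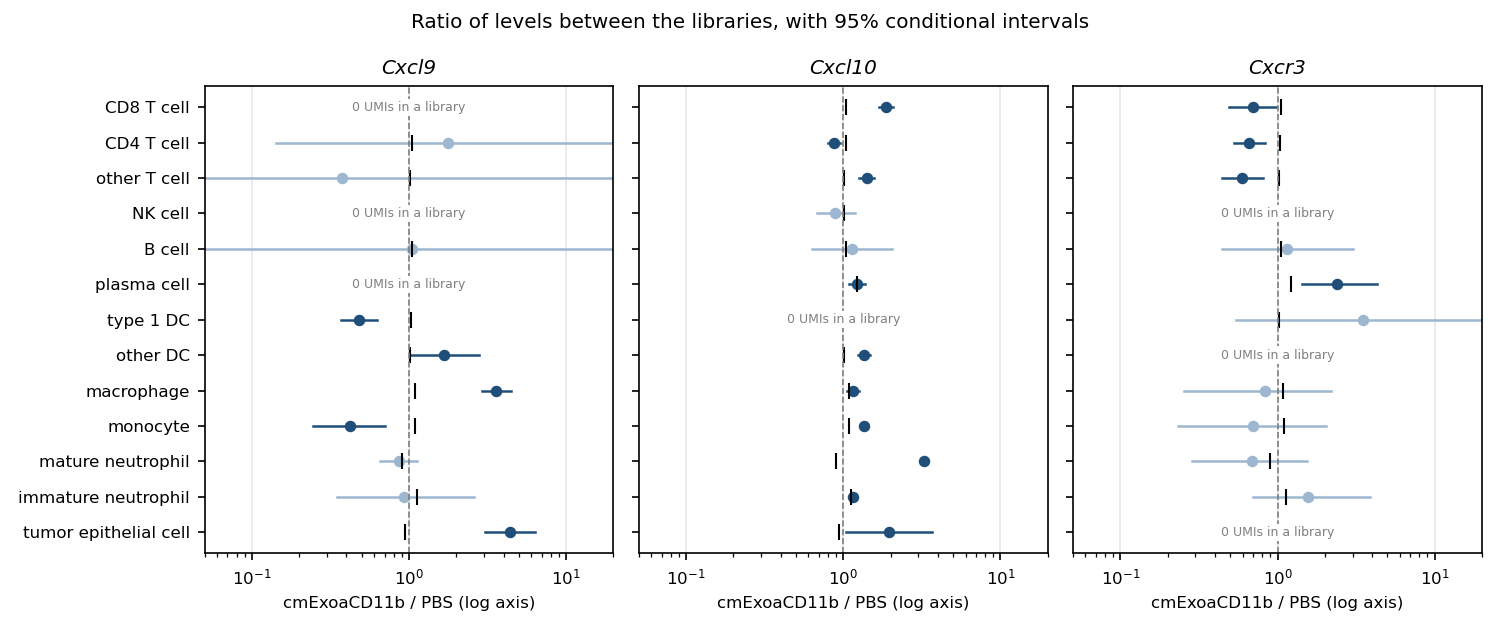
Ratio of the level in cmExoaCD11b to that in PBS (log axis) for each member and class, with exact conditional 95% intervals; dark points have intervals that exclude 1 and black ticks mark the median ratio over all genes of the class. Of the classes with UMIs in both libraries, mature neutrophils had Cxcl10 farthest from its tick (3.27 against 0.898), and Cxcr3 lay below 1 in the CD8, CD4 and other T cells.

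Cxcl9 was rarer and sat in few cells. It gave 565 UMIs in 65 PBS cells (0.951% of cells) and 739 UMIs in 79 cmExoaCD11b cells (1.12%), or 11.2 CPM (10.3-12.1) and 11.8 CPM (11.0-12.7), a ratio of 1.06 (0.949-1.18). Only 14 and 17 cells had at least 10 UMIs, and these held 77.0% and 80.7% of all Cxcl9 UMIs. T cells, B cells and NK cells, which do not usually make it, held 3, 1 and 0 UMIs in PBS and 4, 1 and 0 UMIs in cmExoaCD11b. Cells that passed no gate held 3 Cxcl9 UMIs in PBS and 55 in cmExoaCD11b, a ratio of 26.5 (8.61-132). In cmExoaCD11b 31 of these UMIs came from 1 cell.

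Type 1 DCs held the highest Cxcl9 level of the classes with at least 10 cells per library. In PBS it was 680 CPM (542-842), but all 84 UMIs came from 1 of 11 cells. In cmExoaCD11b it was 327 CPM (283-376), from 197 UMIs in 11 of 43 cells (25.6%, 13.5-41.2), of which 5 held 53, 51, 43, 24 and 14 UMIs. The ratio of 0.481 (0.371-0.629) therefore set 1 PBS cell against several. Other DCs held 35.1 CPM in PBS and 58.7 CPM in cmExoaCD11b, a ratio of 1.67 (1.03-2.81), and 44 of the 61 UMIs in cmExoaCD11b came from 1 cell, without which, and without the top PBS cell, the ratio was 0.725. Over all DCs the level was 127 and 159 CPM, the ratio 1.26 (1.01-1.59), and the cells with a UMI 6 of 71 and 16 of 140. That ratio was 4.53 with the top cell of each library left out and 0.882 in thinned cells. DCs supplied 19.1% of the Cxcl9 UMIs in PBS and 37.5% in cmExoaCD11b, from 1.04% and 1.98% of the cells.

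Macrophages held 50.5 CPM (43.7-57.9) of Cxcl9 in PBS, from 22 of 293 cells (7.51%), and 181 CPM (154-213) in cmExoaCD11b, from 7 of 66 cells (10.6%, 4.37-20.6). The ratio was 3.60 (2.90-4.46), and 99.4% of 7895 genes in this class had a lower one. The 5 highest PBS macrophages held 48, 45, 15, 15 and 12 UMIs, and the 5 highest cmExoaCD11b macrophages held 99, 45, 3, 3 and 2 UMIs. The cell with 99 UMIs had 56944 UMIs in all, with 456 of the macrophage list and 5449 of the mature neutrophil list. The cmExoaCD11b cell with 45 UMIs had 7255 UMIs in all, with 16 and 8 of these lists. These 2 cells held 93.5% of the Cxcl9 UMIs of the class in cmExoaCD11b. Whether they were macrophages beyond passing the gate was not tested. Without the top cell of each library the ratio was 1.80, and with a stricter gate it was 1.19. The share of macrophages with Cxcl9 differed by less than its counting error. Macrophages supplied 35.6% of Cxcl9 UMIs in PBS and 20.8% in cmExoaCD11b.

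Tumor epithelial cells held 33.8 CPM (24.7-45.0) of Cxcl9 in PBS and 147 CPM (120-180) in cmExoaCD11b, a ratio of 4.37 (3.05-6.34). The UMIs came from 2 of 47 PBS cells, with 25 and 21 UMIs, and from 5 of 30 cmExoaCD11b cells, with 47, 37, 11, 2 and 1 UMIs. None of these 5 cells had a UMI of the macrophage list, and the ratio over tumor epithelial cells without such a UMI was 5.99 (3.83-9.71). Its PBS side rested on 1 of 28 cells, with 25 UMIs. The PBS cell with 21 UMIs was left out there because it held 1 UMI of that list. Monocytes showed the opposite direction, with 11.3 and 4.71 CPM, a ratio of 0.419 (0.244-0.702), from 5 and 4 cells, but it was 1.56 with a stricter gate. Mature neutrophils held 12.9 and 11.2 CPM, a ratio of 0.862 (0.658-1.12), from 16 and 22 cells, and 1.28 without the top cell of each library. Although only 0.514% and 0.964% of mature neutrophils had Cxcl9, they supplied 26.2% and 12.6% of its UMIs. In PBS 79.1% of these neutrophil UMIs came from 3 of 3110 cells, with 73, 30 and 14 UMIs. In cmExoaCD11b 48.4% came from 2 of 2281 cells, with 23 and 22 UMIs.

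**Figure D3:**
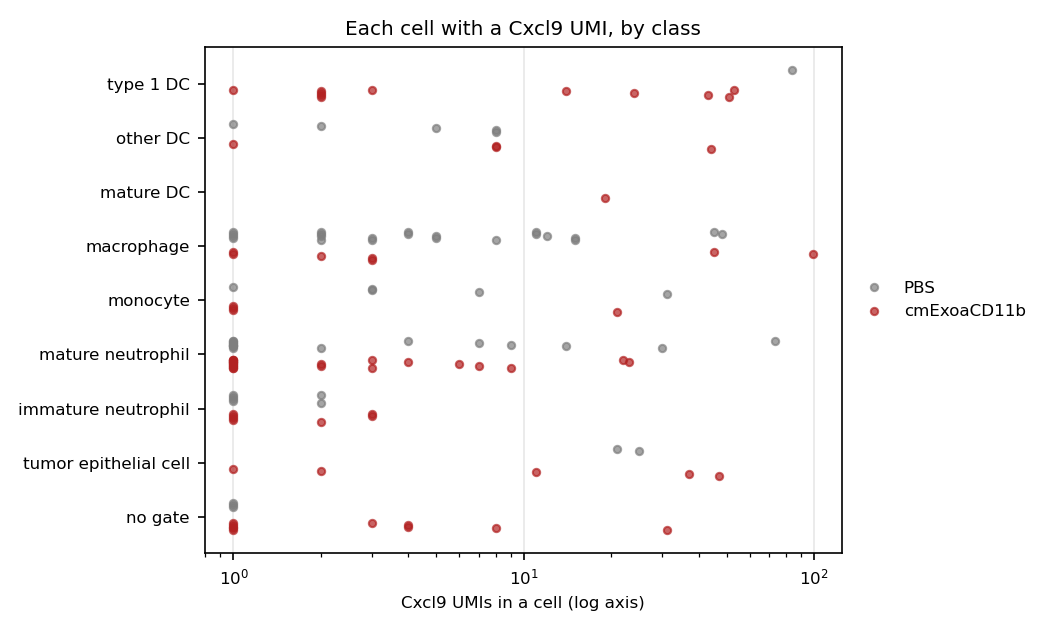
Each point is 1 cell with a Cxcl9 UMI, placed by its class and its number of Cxcl9 UMIs (log axis), for PBS and cmExoaCD11b. In PBS a single type 1 DC held 84 UMIs, whereas in cmExoaCD11b 5 type 1 DCs held 14 to 53 UMIs. The highest cell of all was a cmExoaCD11b cell gated as a macrophage, with 99 UMIs. That cell held 456 UMIs of the macrophage list and 5449 of the mature neutrophil list.

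**Figure D4:**
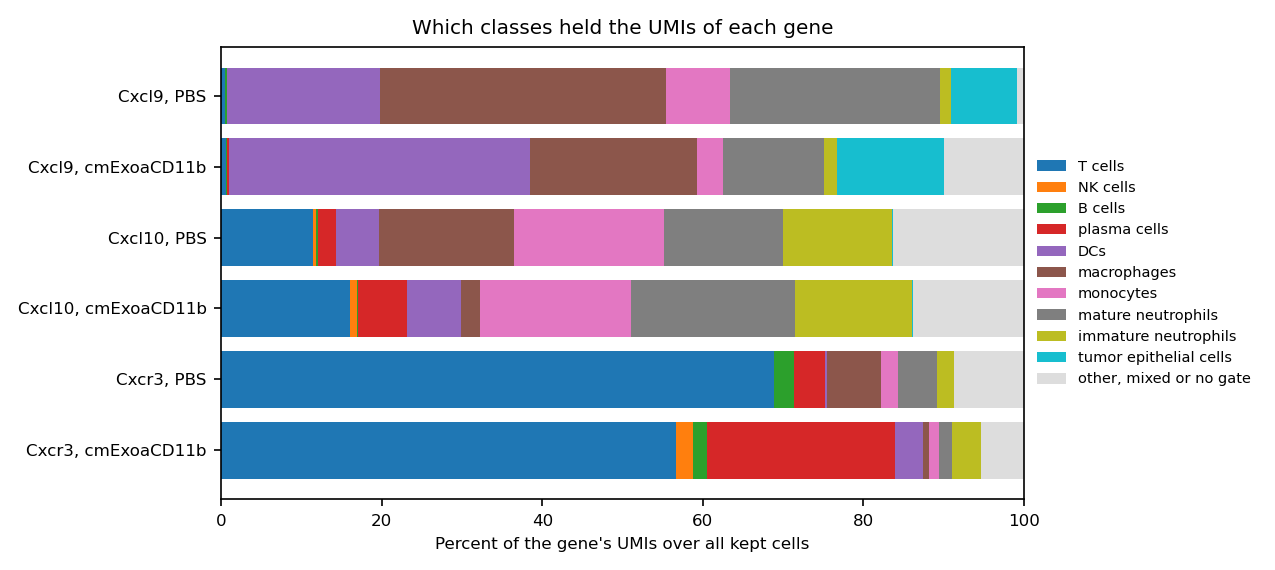
Stacked bars give the percent of all UMIs of each member that came from each class, for PBS and cmExoaCD11b. Macrophages supplied 35.6% and 20.8% of Cxcl9, mature neutrophils 14.8% and 20.4% of Cxcl10, and T cells 68.9% and 56.7% of Cxcr3. In PBS monocytes held more Cxcl10 UMIs than mature neutrophils (2903 against 2293).

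The ligands were counted together in the same cells more often than in other cells. In thinned cells, 7 of 23 PBS cells with Cxcl9 also had Cxcl10 (30.4%, 13.2-52.9) against 8.77% of cells without Cxcl9, and in cmExoaCD11b 17 of 36 (47.2%, 30.4-64.5) against 14.2%. Mature neutrophils showed it within 1 class, with Cxcl10 in 5 of 10 PBS cells with Cxcl9 against 5.90% of the rest, and in 7 of 11 cmExoaCD11b cells against 10.5%. In PBS macrophages it did not appear: at full depth 10 of 22 macrophages with Cxcl9 had Cxcl10 (45.5%, 24.4-67.8) and 43.5% of the others. The PBS type 1 DC with 84 Cxcl9 UMIs had 0 of Cxcl10, and so did 3 of the 5 cmExoaCD11b type 1 DCs with at least 10 Cxcl9 UMIs. The cmExoaCD11b neutrophils with 23 and 22 Cxcl9 UMIs had 156 and 105 of Cxcl10.

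Within a class, Cxcl10 went with Isg15, a ubiquitin-like protein gene of the type I interferon response. In thinned CD8 T cells, 13 of 30 PBS cells with Isg15 had Cxcl10 (43.3%, 25.5-62.6) against 11 of 109 without it (10.1%, 5.15-17.3). In cmExoaCD11b these were 60 of 156 (38.5%, 30.8-46.6) and 23 of 199 (11.6%, 7.47-16.8). The shares given Isg15 were thus alike in both libraries within their intervals, while cells with Isg15 were 30 of 139 CD8 T cells in PBS and 156 of 355 in cmExoaCD11b. Mature neutrophils with Isg15 had Cxcl10 in 12.6% (10.1-15.5) and 14.4% (12.4-16.6), and those without it in 4.31% (3.52-5.20) and 6.95% (5.49-8.66). Monocytes with Ifnb1, the interferon beta gene, had Cxcl10 in 4 of 6 PBS cells and 13 of 16 cmExoaCD11b cells (81.2%, 54.4-96.0), and those without it in 13.2% and 24.6%.

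Cxcl9 went with Gbp2, a GTPase gene induced by interferon gamma, at full depth. Of PBS macrophages, 12 of 61 with Gbp2 had Cxcl9 (19.7%, 10.6-31.8) against 10 of 232 without it (4.31%, 2.09-7.78). Of cmExoaCD11b DCs, 9 of 23 with Gbp2 had it (39.1%, 19.7-61.5) against 7 of 117 (5.98%, 2.44-11.9). Of mature neutrophils, 7 of 324 and 16 of 573 with Gbp2 had Cxcl9 (2.16% and 2.79%), against 0.323% and 0.351% of those without. Cells with a detected gene also tend to be deeper at full depth, and the part of depth in these Cxcl9 shares was not tested. In thinned cells only 5 PBS macrophages and 6 cmExoaCD11b DCs had a Cxcl9 UMI, and their shares by Gbp2 are not given here. The shares in cmExoaCD11b macrophages and PBS DCs are not given either.

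**Figure D5:**
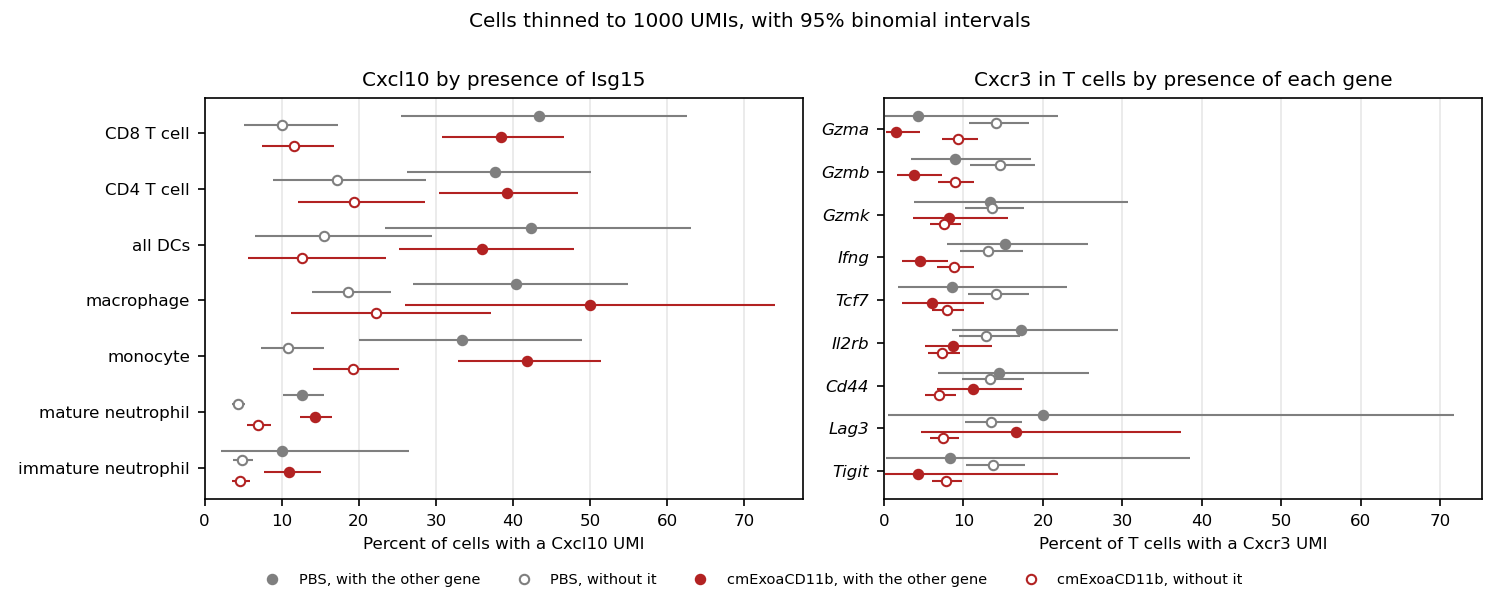
Left, percent of thinned cells (1000 UMIs each) with a Cxcl10 UMI among cells with (filled) and without (open) an Isg15 UMI, by class; right, percent of thinned T cells with a Cxcr3 UMI among cells with and without each T cell state gene, with exact binomial 95% intervals. For CD8 T cells the left panel shows 43.3% and 38.5% with Isg15 against 10.1% and 11.6% without, and for cmExoaCD11b T cells the right panel shows 1.58% with Gzma against 9.37% without.

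Cxcr3, the receptor gene, was lower per UMI in the T cells of cmExoaCD11b than in those of PBS. T cells held 137 CPM (121-154) in PBS, from 156 of 379 cells (41.2%), and 90.1 CPM (81.1-100) in cmExoaCD11b, from 210 of 882 cells (23.8%), a ratio of 0.659 (0.562-0.772). Of 8515 genes compared in T cells, 6.71% had a lower ratio. In thinned cells the share with Cxcr3 was 13.6% (10.3-17.4) and 7.67% (6.0-9.64), and in mature neutrophils, which are not known for this receptor, it was 0.200% and 0.138%, at median depths before thinning of 4771 and 3917 UMIs in T cells and 3008 and 2845 UMIs in neutrophils. CD4 T cells held 216 CPM (182-253) and 143 CPM (122-166), a ratio of 0.662 (0.527-0.832). Other T cells held 176 and 105 CPM (0.598, 0.443-0.811), and CD8 T cells 66.1 and 45.8 CPM (0.693, 0.491-0.982). The direction was the same in all 3 T cell classes and in all 12 alternatives of the ratio over T cells, which ran from 0.542 to 0.705.

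CD4 and other T cells did not differ in Cxcr3 beyond counting error in PBS (1.22, 0.918-1.64), and CD4 T cells were higher in cmExoaCD11b (1.35, 1.06-1.73). CD8 T cells stood below both in each library. In cmExoaCD11b the CD8 T cells, plasma cells (40.0 CPM), NK cells (34.9 CPM) and type 1 DCs (28.2 CPM) formed a row in which no neighbours differed. None of 29 PBS NK cells had a UMI, which allows up to 31.7 CPM by the floor of 3 UMIs (38.9 CPM by the exact upper limit), against 11 of 97 NK cells in cmExoaCD11b, so that a difference was not detectable at this depth. Type 1 DCs held 1 UMI in PBS and 17 UMIs in 12 of 43 cells in cmExoaCD11b (ratio 3.49, 0.546-146). The whole of the kept cells held 8.19 and 10.1 CPM, a ratio of 1.24 (1.09-1.40), with T cells at 5.54% and 12.5% of them.

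Plasma cells differed from T cells in direction. They held 16.7 CPM (9.55-27.1) of Cxcr3 in 41 PBS cells and 40.0 CPM (33.8-47.0) in 142 cmExoaCD11b cells, a ratio of 2.40 (1.43-4.30), with 94.9% of genes in the class below it. The share of plasma cells with a UMI was 26.8% and 35.9%, at median depths of 23338 and 25336 UMIs. In thinned cells it was 2.44% and 2.84% and the ratio 1.16, and as a mean over cells the ratio was 1.23. The T cell list stood at 8.36 and 72.0 CPM in these plasma cells, in PBS at 26.7 CPM in those with Cxcr3 against 1.44 CPM in those without, and in cmExoaCD11b at 27.7 against 108 CPM. Without plasma cells that had a UMI of that list, an alternative chosen after seeing the data, Cxcr3 was 13.8 and 43.8 CPM (3.18, 1.76-6.31). Plasma cells supplied 3.86% and 23.4% of all Cxcr3 UMIs.

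In the cmExoaCD11b library, Cxcr3 was sparse in T cells with Gzma, the granzyme A gene. There, 3 of 190 thinned T cells with Gzma had Cxcr3 (1.58%, 0.327-4.54) against 64 of 683 without it (9.37%, 7.29-11.8). Within CD8 T cells it was 1 of 149 (0.671%, 0.0170-3.68) against 15 of 206 (7.28%, 4.13-11.7). Over all T cells of this library with Gzmb, the granzyme B gene, it was 3.81% (1.66-7.37) against 8.90% (6.84-11.3), with intervals that overlapped. Of 43 cells with Prf1, the perforin gene, none had Cxcr3, against 8.07% of those without it. That 0 allows up to 6.98% by the floor of 3 counts and 8.22% by the exact limit, so a difference was not shown. In PBS, 1 of 23 cells with Gzma had it (4.35%, 0.110-21.9) against 14.2%, which did not differ beyond counting error. Cells with Cxcr6, a receptor gene of tissue-resident T cells, had Cxcr3 in 14.7% in PBS against 13.1%, and in 11.2% (6.65-17.3) in cmExoaCD11b against 6.93% (5.19-9.04). T cells with Gzma were 23 of 376 in PBS and 190 of 873 in cmExoaCD11b, and the part of this shift in the Cxcr3 ratio was not tested. In T cells without Gzma, Cxcr3 was also at a lower share in cmExoaCD11b, at 9.37% against 14.2% (10.7-18.2) in PBS, with intervals that overlapped.

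The genes around the axis were described by counts of list members at least 2-fold apart between the libraries, among genes with at least 50 UMIs in a class. In mature neutrophils, where 4.57% of 9561 genes were at least 2-fold higher and 6.99% at least 2-fold lower in cmExoaCD11b, all 7 interferon-stimulated genes tested of 8 in the files were higher, and so were all 7 genes induced mainly by interferon gamma tested of 10. Isg15 stood at 483 and 1666 CPM (ratio 3.45) and Ifit1, an antiviral RNA-binding protein gene, at 84.1 and 524 CPM (6.23). Gbp5, a GTPase gene of the interferon gamma response, stood at 19.2 and 88.5 CPM (4.62). Of the 7 interferon gamma signaling genes tested none was 2-fold apart. At 3-fold or more, where 1.24% of genes were higher, the counts were 4 and 3. The median ratio of the interferon-stimulated list was 3.45 against 0.898 over all genes of the class.

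In monocytes, 3.75% of 9359 genes were at least 2-fold higher and 4.61% at least 2-fold lower in cmExoaCD11b. Of 7 interferon-stimulated genes tested 6 were higher, among them Oasl1, an inhibitor of Irf7 translation, at 79.3 and 292 CPM (3.67), and of 9 interferon gamma-induced genes 3 were higher, Iigp1 (3.14), Irgm1 (4.87) and Igtp (3.92). Of 3 genes for processing and holding the ligands, 2 were lower, the heparan sulfate proteoglycan genes Sdc4, at 268 and 93.5 CPM (0.349), and Sdc1, at 27.5 and 2.55 CPM (0.0928). Of 4 other T and NK cell chemokine genes 2 were lower, Cxcl16, whose product binds CXCR6, at 57.6 and 13.6 CPM (0.235), and Ccl3, a chemokine gene of activated myeloid and T cells, at 1064 and 364 CPM (0.342).

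In macrophages, where 4.37% of 7895 genes were at least 2-fold higher, 5 of 7 interferon-stimulated genes, 4 of 9 interferon gamma-induced genes and 2 of 8 interferon gamma signaling genes were higher, the last 1 of 8 at 3-fold, where 1.17% of genes were. Ifnb1 stood at 40.7 and 217 CPM (5.33, 4.29-6.63) and Gbp2 at 38.7 and 121 CPM (3.14). Of 5 genes tested of the IL-12 and type 1 helper list 4 were higher: Il12rb2, Il18r1, Tbx21 and Stat4, which encode receptor chains and transcription factors best known from T and NK cells. Il12b, an IL-12 subunit gene, had too few UMIs to be tested, 30 in PBS and 0 in cmExoaCD11b (upper limit of the ratio 0.614). The T cell marker list stood at 163 and 257 CPM in these macrophages, and Gzma at 22.3 and 200 CPM, and their part in those ratios was not tested.

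In DCs, where 3.98% of 6159 genes were at least 2-fold higher and 2.99% lower, 5 of 8 interferon-stimulated genes were higher. The others were Isg15 (1.86, 1.72-2.02), Ifit1 (0.864, 0.783-0.955) and Ifit2 (0.912, 0.852-0.977). Irf7, a transcription factor of type I interferon genes, stood at 32.8 and 289 CPM (8.81, 6.02-13.4). Il12b, the gene of an IL-12 subunit, was at 112 and 52.4 CPM (0.466, 0.346-0.627). In PBS all 96 of its UMIs came from the type 1 DCs, where the level was 777 and 121 CPM (0.156, 0.113-0.214), while other DCs held 0 and 18 UMIs. Of 8 interferon gamma-induced genes tested 1 was higher, Irgm1 (3.49), Igtp was 2.04-fold higher before 1 UMI was added to each library, and Gbp5 was lower (0.269). Ifnb1 stood at 267 and 187 CPM (0.70, 0.590-0.833) over all DCs, but at 64.8 and 79.7 CPM in type 1 DCs (1.23, 0.577-3.01) and at 311 and 266 CPM in other DCs (0.853, 0.711-1.03). Type 1 DCs were 11 of 71 DCs in PBS and 43 of 140 in cmExoaCD11b, and the part of this make-up in the values over all DCs was not tested.

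In CD8 T cells, where 3.97% of 6326 genes were at least 2-fold higher, all 7 interferon-stimulated genes tested and 4 of 8 interferon gamma-induced genes were higher, with a median ratio of 4.62 over the former and 1.05 over all genes. Ifng itself, the inducer of the ligands, stood at 553 and 668 CPM (1.21, 1.09-1.34), and Tbx21, whose product T-bet drives Cxcr3 transcription, at 194 and 466 CPM (2.40, 2.04-2.82), so that Tbx21 was higher where Cxcr3 was lower. In CD4 T cells, where 2.07% of 5321 genes were at least 2-fold higher, 2 of 7 interferon-stimulated genes were higher, Ifit3 (2.84) and Usp18 (2.84), and 0 at 3-fold, where 0.583% of genes were, and Isg15 was at 1452 and 1527 CPM (1.05, 0.972-1.14). Cxcr6 was lower along with Cxcr3 in T cells as a whole, at 374 and 242 CPM (0.648, 0.589-0.713). Dpp4, whose product clips CXCR3 ligands, stood at 81.8 and 82.9 CPM in T cells (1.01, 0.839-1.23) and at 233 and 241 CPM in DCs (1.03, 0.870-1.23).

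The genes whose levels were most like each member were ranked by Pearson's r over 20 sums of class and library, which share libraries and depth, so the values are descriptions only. The sums needed at least 50 cells, which left out type 1 DCs and tumor epithelial cells, both high in Cxcl9, as well as PBS NK and plasma cells. Cxcl10 was nearest to Ifih1, the gene of the RNA sensor MDA5 (r = 0.902), Isg15 (0.886) and Ifit1 (0.884), followed by Hnrnpll (0.869) and Smpdl3b (0.862). Cxcl9 was nearest to Pip5k1c (0.930), Cxcl16 (0.924), the matrix protease gene Mmp14 (0.919), Soga1 (0.914) and the fatty acid binding protein gene Fabp5 (0.905). Cxcr3 was nearest to Faah (0.962), Abhd8 (0.949), Gm19585 (0.945), the T cell transcription factor gene Lef1 (0.943) and Ehd3 (0.937). With at least 1000 UMIs required of the other gene, 4, 4 and 1 of these 5 genes remained for Cxcl10, Cxcl9 and Cxcr3.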

How the data were processed

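The values, as deposited, are whole UMI counts of each gene in each droplet barcode for 2 libraries, 1 per treatment and each a pool of 3 mice, not normalized and not filtered. The matrix headers name Cell Ranger 7.1.0, whereas the study's methods name another version, and the genome build is not given in the sources used here. The libraries held 67143628 and 81288480 UMIs over 644248 and 723594 barcodes, and the kept cells held 50650189 and 62502167.

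Barcodes above 10% of the 99th percentile of the 3000 largest were called as cells, and so were those with at least 500 UMIs that differed from empty droplets (at most 100 UMIs) in a multinomial test (10000 simulations, adjusted p at most 0.01). Cells under 200 genes or over 20% mitochondrial UMIs were dropped. The highest Scrublet scores (30 components) were removed at 0.8% per 1000 cells, 421 and 453 cells, since its automatic threshold marked 0. Most gates needed at least 2 markers, 3 UMIs and 3 times the level of 10% free RNA. Plasma cells needed 3 markers. Other DCs needed any of Cd209a, Flt3, Itgax and Clec10a, with at least 2 UMIs of MHC class II genes. Neutrophils could also pass on S100a8 with S100a9, or on Camp, Ngp and Ltf at 100 per 10000 UMIs. Cells passing gates of different lineages were set aside (111 and 113) if the next lineage's scaled marker level exceeded 50% of the best. Other such cells kept their best class. No gate was passed by 1085 and 909 cells. CD4 T cells exclude the few regulatory T cells.

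The members, lists and motifs were chosen with earlier results of these data known. Genes named are the members, those of the lists and the 5 most like each member among genes with at least 200 UMIs. Ccl19 and Ccl21a were left out because each symbol had several rows. For list counts 1 UMI was added in each library. Intervals are exact Poisson, Clopper-Pearson and conditional, at 95%. On class sums simulated as Poisson counts, the list rule called 100% of 4-fold changes and 49.3% (mature neutrophils, 9563 genes) or 47.9% (CD8 T cells, 6330 genes) of 2-fold changes. In these simulations 95.5% and 95.9% of intervals held the true ratio. The intervals assume the same Poisson model and the simulation had no spread between cells, so this coverage does not extend to the real counts. Alternatives changed cell calling, filters, doublets, gates, depth, free RNA, scaling, top cells and averaging. Those leaving out shared barcodes or cells with other markers were chosen after seeing the data. Python 3.11.15, numpy 2.4.6, scipy 1.17.1, pandas 2.3.3 and scanpy 1.11.5 were used. Some items are not reported here.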

Additional observations from a re-analysis of the deposited data

Results flagged for a closer look

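The ratios of a member pointed in opposite directions in different classes for each member, and the difference between the classes was not tested. For Cxcl9 the ratio was 4.37 (3.05-6.34) in tumor epithelial cells and 0.419 (0.244-0.702) in monocytes. For Cxcl10 it was 3.27 (3.11-3.44) in mature neutrophils and 0.871 (0.80-0.947) in CD4 T cells. For Cxcr3 it was 2.40 (1.43-4.30) in plasma cells and 0.598 (0.443-0.811) in other T cells. Each pair holds the highest and the lowest of the ratios whose interval excludes 1 in gated classes of enough cells, so the pairs were chosen for their difference. With a stricter gate the monocyte Cxcl9 ratio was 1.56 and the CD4 T cell Cxcl10 ratio 1.03, and the latter was 1.34 above the ranked-UMI cut-off, so these directions turned.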

How the results depend on the processing

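No paired analysis was possible because each treatment has 1 library, from different mice. Of the values that answer a comparison, 139 recomputed values stayed within the counting interval of the value reported, or for counts within 1.5 times it, 72 moved beyond it and 4 turned direction. Of the other values 132 stayed, 29 moved and 7 turned direction. Where no cause is named, the cause was not tested.

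For the Cxcl9 ratio of macrophages (3.60), barcodes above the ranked-UMI cut-off gave 2.76, the stricter gate 1.19, thinning 4.57, leaving out the top cells 1.80 and a mean over cells 2.87. For all DCs (1.26) thinning gave 0.882 and leaving out the top cells 4.53. The Cxcl10 ratio of mature neutrophils (3.27) was 1.94 above the cut-off, 3.53 and 3.44 with stricter and looser gates, 3.11 thinned, 3.89 with free RNA subtracted and 3.64 when divided by the median ratio over genes. That of monocytes (1.36) was 1.51 and 1.77 with stricter and looser gates, 1.28 with mixed cells assigned, 2.42 thinned, 1.24 divided by the median and 2.18 as a mean over cells. That of CD8 T cells (1.87) was 0.665 above the cut-off, 2.49 thinned, 2.19 as a mean and 2.82 without cells with a macrophage marker. That of CD4 T cells (0.871) was 1.34 above the cut-off, 1.03 with the stricter gate and 0.973 thinned. The Cxcr3 ratio of T cells (0.659) was 0.560 above the cut-off and 0.542 thinned, and that of plasma cells (2.40) 1.16 thinned and 1.23 as a mean. Ratios of further classes whose interval excluded 1 and that turned direction were Cxcl9 in monocytes (1.56, stricter gate) and other DCs (0.725 without the top cells, 0.994 as a mean), and Cxcl10 in other T cells (0.987, stricter gate), immature neutrophils (0.977, free RNA subtracted) and plasma cells (0.927 thinned, 0.999 divided by the median). Among ratios whose interval held 1, Cxcl9 in mature neutrophils (0.862) was 1.28 without the top cells, and Cxcl10 in NK cells (0.891) was 1.68 above the cut-off, 1.32 with the looser gate, 1.03 thinned and 2.48 without the top cells.

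The macrophage share of Cxcl9 UMIs in PBS (35.6%) was 43.6% above the cut-off, 9.59% thinned and 53.3% without top cells. In cmExoaCD11b (20.8%) it was 26.1% above the cut-off, 7.04% with the stricter gate, 8.86% thinned and 14.6% without top cells. The DC share in PBS (19.1%) was 25.7%, 9.59% and 5.57% above the cut-off, thinned and without top cells, and in cmExoaCD11b (37.5%) 46.5%, 15.2% and 42.8%, and 33.4% without doublet removal. The mature neutrophil share of Cxcl10 UMIs in PBS (14.8%) was 5.16% above the cut-off, 14.0% without doublet removal, 8.42% with the stricter gate, 16.1% with mixed cells assigned, 33.9% thinned, 13.2% with free RNA subtracted and 15.9% without top cells. In cmExoaCD11b (20.4%) the same alternatives gave 4.73%, 18.7%, 14.0%, 22.0%, 34.7%, 21.6% and 21.5%. The T cell share of Cxcr3 UMIs in PBS (68.9%) was 57.3% above the cut-off, 75.3% thinned and 74.3% with free RNA subtracted. In cmExoaCD11b (56.7%) it was 19.4%, 83.9% and 62.2%, and 50.4% without doublet removal and 61.0% without top cells. The plasma cell share of Cxcr3 in PBS (3.86%) was 7.04% above the cut-off and 1.30% thinned, and in cmExoaCD11b (23.4%) 49.0% and 4.6%. At full depth the share of T cells with Gzma that held Cxcr3 was 22.0% and 9.96%. With at least 3-fold in place of 2-fold, 4 interferon-stimulated and 3 interferon gamma-induced genes were higher in mature neutrophils, 0 interferon-stimulated genes in CD4 T cells and 1 interferon gamma signaling gene in macrophages.

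A cell without a UMI of Cxcl9 or Cxcr3 is not shown to lack the RNA, and classes of few cells, such as 11 PBS type 1 DCs, limit every value above.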
